A study of Mus musculus with 8 samples.

Results

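Of the 18336 genes named on 2 microarray platforms, 10 encode enzymes that use or make glutathione and were followed here: the glutathione peroxidases Gpx1, Gpx2, Gpx3 and Gpx4, the glutathione transferases Gstm1, Gstm5, Gsta4, Gsto1 and Mgst1, and Gclm, a subunit of the enzyme that starts glutathione synthesis. The 10 genes were chosen with earlier results of these data known. Every probe set (the group of short probes that measures 1 transcript) annotated to these genes was taken by gene name and kept apart. This gave 31 of 57459 probe sets, 14 on the U74Av2 array and 17 on the MOE430v2 array, and each of the 31 names a single gene. Of these, 30 were bright enough to be tested, and the remaining probe set, for Mgst1 on MOE430v2, is given by its signals.

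Foxa2 null embryos were set against wild-type embryos at embryonic day 7.5, during gastrulation. The Foxa2 null embryos were made from Foxa2 null embryonic stem cells by tetraploid complementation, in which the stem cells form the embryo proper and a wild-type tetraploid host supplies the extra-embryonic tissues, and 2 pools of 53 and 48 embryos were collected. The wild-type embryos came from matings of ICR mice and formed 2 pools of 53 and 50 embryos. In all pools the extra-embryonic region was cut away, and the methods state that visceral endoderm derived from the host stayed on the Foxa2 null embryos. The methods give no sex for the embryos, and a difference in sex between the genotypes was not examined. Genotype and the origin of the embryos cannot be told apart, and the strain of the mutant cells is uncertain, since only the MOE430v2 labels of the mutants name ICR. By the staging in the study, wild-type pool 2 held more early embryos than the other pools. The 4 extracts were each hybridized to both array types, so the platforms are technical repeats and n was 2 pools per genotype throughout. Each p-value therefore rests on the spread between 2 pools of a genotype. The limma test draws that spread towards the one seen at other probe sets or genes of like signal. Spread between single embryos was not measured.

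Glutathione is the most abundant small thiol of the cell. Glutathione peroxidases use it to reduce hydrogen peroxide and lipid peroxides, and the enzymes encoded by Gpx1, Gpx2, Gpx3 and Gpx4 carry selenocysteine at the active site. Glutathione transferases couple it to electrophiles, among them the aldehydes released from oxidized lipids, and several of their genes are known targets of the transcription factor Nrf2.

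The deposited signals have a mean of 150 on U74Av2 and 500 on MOE430v2 after trimming 2% at each end, and array medians were 48.0 to 52.8 and 155 to 165. Foxa2 itself had U74Av2 signals of 84.0 and 93.8 in Foxa2 null and 165.3 and 270.7 in wild-type pools, with a log2 ratio of -1.25 (adjusted p = 0.13), and on MOE430v2 the ratio was -0.88 (adjusted p = 0.141). Whether its probe sets lie in the deleted part is not known. Genes of chromosome 8 stood apart from the rest, with a median log2 ratio of 0.32 over 344 genes on U74Av2 and 0.35 over 734 genes on MOE430v2, against -0.01 and -0.02 over all genes. None of the 10 genes lies on chromosome 8. Gstm1, Gstm5 and Gclm lie on chromosome 3, Gsta4 and Gpx1 on 9, Mgst1 on 6, Gpx4 on 10, Gpx3 on 11, Gpx2 on 12 and Gsto1 on 19.

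In Foxa2 null pools, Gpx2 and Gsta4 had the lowest ratios of the 10 genes, and Gstm5 and Mgst1 had lower values in both Foxa2 null pools by smaller margins. Gclm and Gstm1 each had a probe set with higher values in both Foxa2 null pools on each platform. Only the MOE430v2 probe set of Gsta4 passed the test, and no probe set of any other of the 10 genes did. Pools were termed separated where both Foxa2 null arrays lay on the same side of both wild-type arrays. On U74Av2, 0 of 14 probe sets passed an adjusted p of 0.05 in limma, where 0.173% of all probe sets tested did so as lower and 0.104% as higher. At an unadjusted p under 0.05, 4 were lower and 1 was higher, where 5.01% of all probe sets tested passed in each direction. Separated pools were found for 5 probe sets lower in Foxa2 null (35.7%, against 21.4% of all tested) and for 2 higher (14.3%, against 18.6%), and in 7 the pools overlapped. On MOE430v2, 1 of 16 probe sets tested, that of Gsta4, passed as lower, where 0.244% of all did, and 0 passed as higher, where 0.19% did. At an unadjusted p under 0.05 the MOE430v2 counts were 4 lower, where 6.07% of all were, and 1 higher, where 6.03% were. Here 6 probe sets were separated as lower (37.5%, against 21.8% of all) and 3 as higher (18.8%, against 21.5%), and 7 overlapped. Gpx2, Gsta4, Gstm5 and Mgst1, 4 of the 10 genes, had a probe set separated as lower on both platforms, against 13.1% of the 5933 genes tested on both, and Gclm and Gstm1 (2 genes) had one separated as higher on both, against 13.2%. A gene with several probe sets has more chances in this count, and Gstm5 has 4 on U74Av2 and Gstm1 4 on MOE430v2. The median log2 ratio was -0.06 over the 14 U74Av2 probe sets and -0.09 over the 16 on MOE430v2, close to the medians of -0.02 and -0.00072 over all probe sets tested. Gpx2, Gsta4, Gstm5 and Mgst1 had been picked by the study for in situ hybridization because they were lower on these U74Av2 arrays. Neither their direction nor the counts of lower probe sets and genes beside the shares of all is therefore independent evidence.

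**Figure D1:**
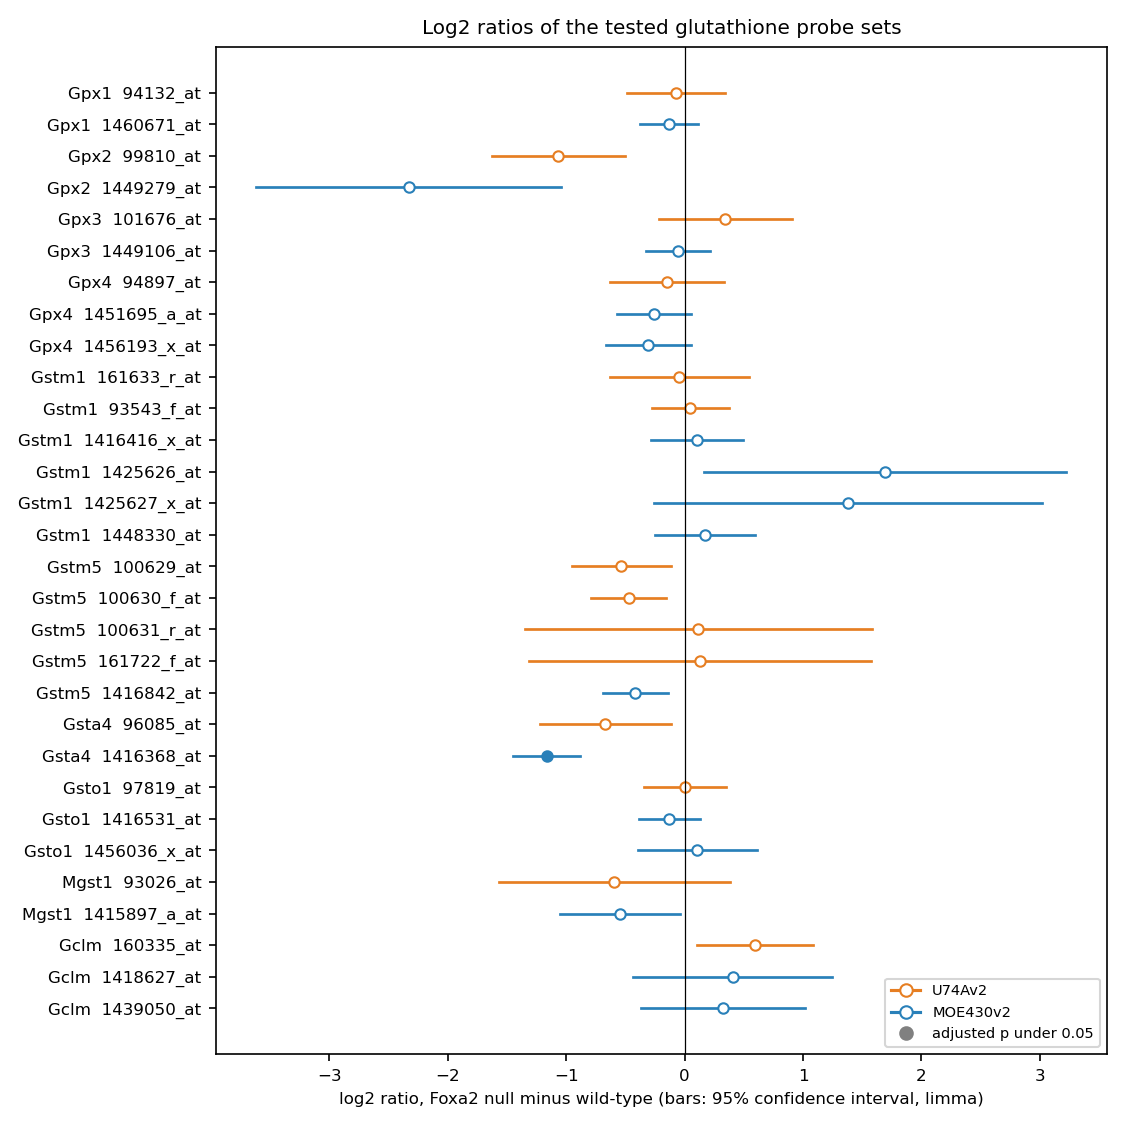
Foxa2 null minus wild-type log2 level (x axis) for each of the 30 tested probe sets (rows), with 95% confidence intervals from limma. Orange stands for U74Av2 and blue for MOE430v2, and the only filled point, Gsta4 at -1.16 on MOE430v2, passed an adjusted p of 0.05.

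RefSeq promoters were found for 9 of the 10 genes, all but Gsta4 (14 promoters, each running from 250 bases before to 50 after a start). The letters TGACNNNGC, the core of the antioxidant response element bound by Nrf2, occurred on either strand in 3 of these 9 genes, Gstm5, Mgst1 and Gclm, and in 12.4% of all 32851 promoters (14% of genes). A forkhead core, TGTTTAC or TGTTTGC on either strand, occurred in 1 of the 9 genes, at the downstream start of Mgst1, and in 8.48% of all promoters (9.47% of genes). The 250 bases before the start are printed for Gpx2, Gstm5 and Mgst1, the genes lower on both platforms that have an entry, and for Gclm, which ran the other way, 5′ to 3′ with matches to either motif in capitals (RefSeq, build GRCm38.p6).
Gpx2, chr12:76795555-76795804, minus strand: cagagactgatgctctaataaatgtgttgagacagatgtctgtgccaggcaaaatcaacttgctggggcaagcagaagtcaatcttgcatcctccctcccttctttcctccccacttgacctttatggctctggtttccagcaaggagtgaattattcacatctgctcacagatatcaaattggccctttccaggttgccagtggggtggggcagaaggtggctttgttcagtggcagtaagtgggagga
Gstm5, chr3:107895604-107895853, plus strand: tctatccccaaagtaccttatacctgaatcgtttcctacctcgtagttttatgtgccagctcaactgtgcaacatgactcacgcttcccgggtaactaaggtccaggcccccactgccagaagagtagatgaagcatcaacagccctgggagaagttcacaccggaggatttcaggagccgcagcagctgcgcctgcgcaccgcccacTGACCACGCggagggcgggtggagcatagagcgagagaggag
Mgst1, upstream start, chr6:138140277-138140526, plus strand: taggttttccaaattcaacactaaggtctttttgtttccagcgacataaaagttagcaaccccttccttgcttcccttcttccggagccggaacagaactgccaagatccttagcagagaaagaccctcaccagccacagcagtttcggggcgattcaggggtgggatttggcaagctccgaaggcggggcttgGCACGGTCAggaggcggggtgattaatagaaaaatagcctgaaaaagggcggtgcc
Mgst1, downstream start, chr6:138141337-138141586, plus strand: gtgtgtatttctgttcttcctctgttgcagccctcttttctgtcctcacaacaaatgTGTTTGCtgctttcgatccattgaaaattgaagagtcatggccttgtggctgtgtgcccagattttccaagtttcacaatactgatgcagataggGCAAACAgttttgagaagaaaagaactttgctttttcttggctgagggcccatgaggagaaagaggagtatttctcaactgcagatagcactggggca
Gclm, chr3:122245307-122245556, plus strand: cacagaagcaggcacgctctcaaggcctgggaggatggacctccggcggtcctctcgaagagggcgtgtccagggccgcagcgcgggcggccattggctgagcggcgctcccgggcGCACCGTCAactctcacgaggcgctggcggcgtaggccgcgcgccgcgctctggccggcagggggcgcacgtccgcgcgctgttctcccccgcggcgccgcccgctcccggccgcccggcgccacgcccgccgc
In these windows the antioxidant response element began 42 bases before the Gstm5 start on the coding strand. It stood on the opposite strand 56 bases before the upstream Mgst1 start and 134 bases before the Gclm start, where the capitals show the reverse complement. The forkhead matches began 193 and 98 bases before the downstream Mgst1 start, the nearer of them on the opposite strand. The Gpx2 window held neither set of letters. Matches of this kind are letters only and binding at these places was not measured here.

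Gpx2 encodes the gastrointestinal glutathione peroxidase, known from epithelia of endodermal origin. On U74Av2 its probe set 99810_at read 44.3 and 59.0 in Foxa2 null pools, against 106.8 and 107.5 in wild-type pools. The wild-type pools differed by less than 1 unit and both Foxa2 null pools lay far below them. Its log2 level averaged 5.68 ± 0.29 in Foxa2 null and 6.74 ± 0.01 in wild-type pools (SD, n = 2 each), a log2 ratio of -1.07 (SE 0.25, 95% confidence interval -1.63 to -0.50), or 2.10-fold lower, with an adjusted p of 0.165 by limma. On MOE430v2, probe set 1449279_at read 34.8 and 127.6 in Foxa2 null, against 302.5 and 378.3 in wild-type pools. The groups again did not overlap, but the Foxa2 null pools differed widely, and the lower of them was under 54.4, the level below which a mean signal excluded a probe set from testing. After loess the log2 ratio was -2.33 (SE 0.57, interval -3.62 to -1.04), or 5.02-fold lower, with an adjusted p of 0.145. The 4 differences between a Foxa2 null and a wild-type pool ran from -3.38 to -1.28 on this array and from -1.28 to -0.86 on U74Av2. Without Foxa2 null pool 1 the MOE430v2 ratio was -1.43 (adjusted p = 0.179) and without Foxa2 null pool 2 it was -3.22 (adjusted p = 0.0131), fits in which the lone Foxa2 null pool is assumed to vary like the wild-type pools. Without wild-type pool 1 or 2 it was -2.49 (adjusted p = 0.274) or -2.17 (adjusted p = 0.403).

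Like Gpx2, the peroxidases Gpx1, Gpx3 and Gpx4 did not pass the test on either platform. Gpx1, the widely expressed cytosolic form, read 197.6 and 236.7 on U74Av2 in Foxa2 null, against 217.4 and 237.6 in wild-type pools, and 6701 and 6459 on MOE430v2, against 6382 and 8168. Its pools overlapped on both arrays and the ratios were -0.07 (interval -0.48 to 0.34) and -0.13 (interval -0.38 to 0.11). Gpx3, the secreted plasma form, read 863.7 and 484.3 in Foxa2 null, against 530.8 and 489.7 in wild-type pools on U74Av2, so that Foxa2 null pool 1 alone stood above the rest. That pool set the U74Av2 ratio of 0.34 (SE 0.25, adjusted p = 0.723), which was -0.07 without it. On MOE430v2 Gpx3 read 2930 and 2507 in Foxa2 null, against 2730 and 2901 in wild-type pools, with overlapping pools and a ratio of -0.06 (interval -0.33 to 0.21).

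Gpx4 reduces lipid hydroperoxides within membranes and is essential for mouse embryos to pass gastrulation. Its U74Av2 signals were 311.4 and 209.7 in Foxa2 null, against 282.7 and 283.6 in wild-type pools. Its 2 MOE430v2 probe sets read 5282 and 4037 in Foxa2 null, against 5123 and 5951 in wild-type pools (1451695_a_at), and 3770 and 2636, against 3810 and 3977 (1456193_x_at). On all 3 probe sets Foxa2 null pool 2 was the lowest of the 4 pools, while Foxa2 null pool 1 lay above, between or just under the wild-type pools. Only 1456193_x_at was separated, by a margin of -0.04 on the log2 scale. The ratios were -0.15, -0.26 and -0.31 with adjusted p of 0.877, 0.502 and 0.490.

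Gsta4 encodes the alpha-class transferase that detoxifies hydroxynonenal, a product of lipid peroxidation. On MOE430v2, probe set 1416368_at read 1602 and 1391 in Foxa2 null pools, against 3217 and 3459 in wild-type pools. The groups lay wide apart compared with the spread inside each. Log2 levels averaged 10.54 ± 0.13 in Foxa2 null and 11.71 ± 0.07 in wild-type pools (SD, n = 2 each), and Gsta4 fell by 1.16 (SE 0.12, interval -1.45 to -0.88), a 2.24-fold decrease that was the only call among the 30 probe sets (adjusted p = 0.00887 by limma). On U74Av2, probe set 96085_at read 61.3 and 74.9 in Foxa2 null, against 94.5 and 122.9 in wild-type pools. These groups did not overlap either, though they lay closer, and the ratio was -0.67 (SE 0.24, interval -1.22 to -0.11, adjusted p = 0.379). The MOE430v2 call did not hold once wild-type pool 2 was left out (ratio -1.11, adjusted p = 0.0716) or when limma was fitted without an intensity trend (adjusted p = 0.449).

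**Figure D2:**
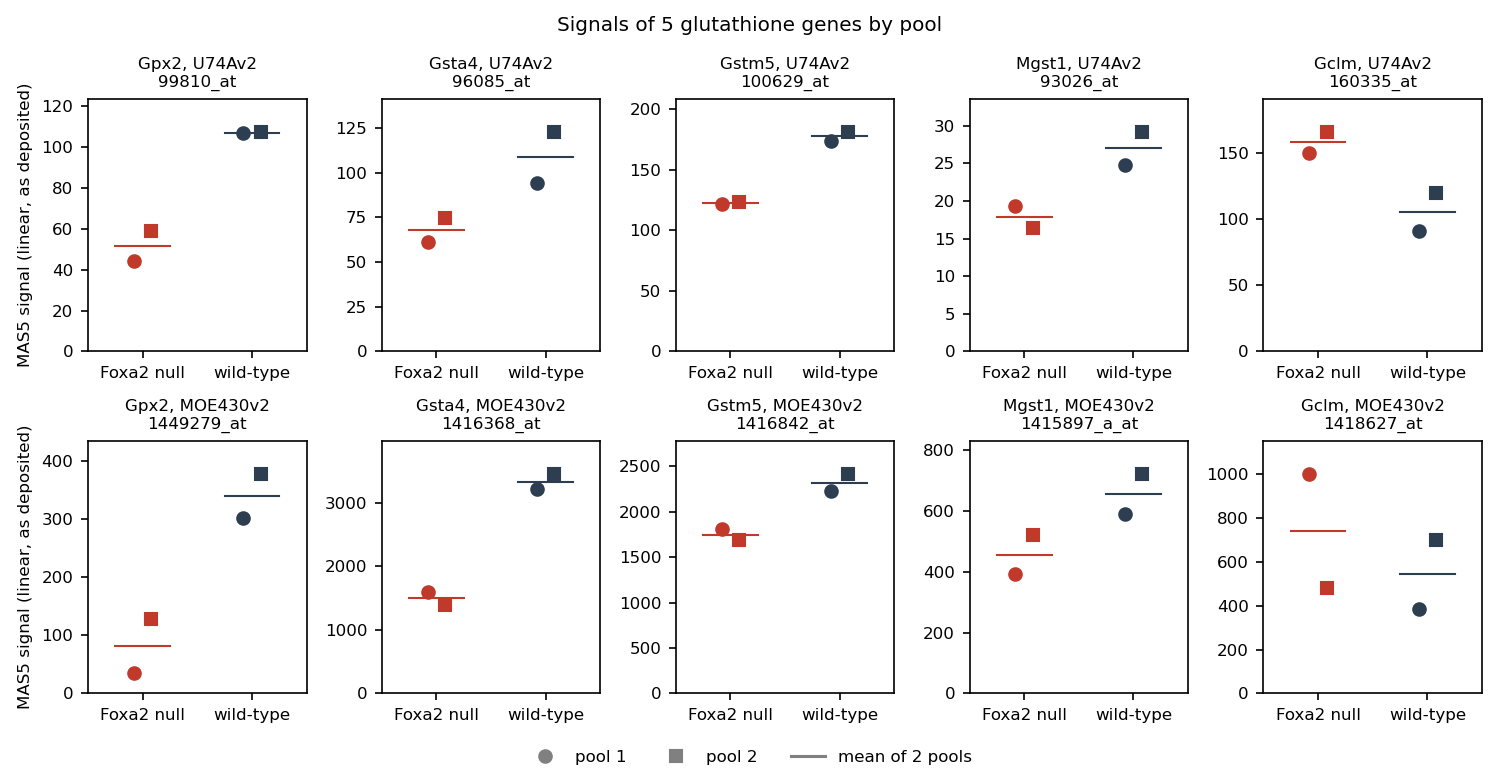
MAS5 signal (linear, y axis from 0) in each pool for 5 genes on U74Av2 (upper row) and MOE430v2 (lower row), with Foxa2 null pools to the left in red, wild-type pools in dark blue, and a line at the mean of the 2 pools. Gpx2, Gsta4, Gstm5 and Mgst1 were lower in both Foxa2 null pools on both platforms, and Gclm was higher on U74Av2 while its pools overlapped on the MOE430v2 probe set shown.

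Gstm5, a mu-class transferase, has 4 probe sets on U74Av2. Probe set 100630_f_at read 627.0 and 606.3 in Foxa2 null, against 903.5 and 810.4 in wild-type pools, and 100629_at read 121.8 and 123.1, against 173.9 and 181.4. Both were separated with little spread inside a genotype, at ratios of -0.47 (SE 0.14, adjusted p = 0.251) and -0.54 (SE 0.18, adjusted p = 0.338). The other 2 U74Av2 probe sets were dim, with signals of 15.8 to 41.6 in Foxa2 null and 9.6 to 74.6 in wild-type pools, and their pools overlapped (ratios 0.12 and 0.13). The single MOE430v2 probe set, 1416842_at, read 1805 and 1686 in Foxa2 null, against 2224 and 2417 in wild-type pools. It was separated at -0.42 (SE 0.12, interval -0.69 to -0.14, adjusted p = 0.22). Names ending in _f, _r or _x mark probe sets whose probes can match related sequences or broke a design rule, so for mu-class genes such as Gstm5 and Gstm1, which are alike in sequence, their signals are uncertain.

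Mgst1 encodes a membrane-bound microsomal transferase that also acts as a peroxidase. On U74Av2, where it was dim, it read 19.4 and 16.4 in Foxa2 null, against 24.8 and 29.2 in wild-type pools, not far above the filter level of 15.4. On MOE430v2, probe set 1415897_a_at read 392.7 and 519.8 in Foxa2 null, against 590.1 and 721.9 in wild-type pools. Both probe sets were separated as lower, at -0.59 (SE 0.43, adjusted p = 0.723) and -0.54 (SE 0.22, adjusted p = 0.383). The remaining Mgst1 probe set, 1415898_at, was too dim for testing and ran the other way, with 62.9 and 41.9 in Foxa2 null, against 14.7 and 6.88 in wild-type pools.

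Gstm1, another mu-class transferase, gave mixed probe sets. On U74Av2, 93543_f_at read 535.8 and 532.4 in Foxa2 null, against 529.5 and 503.6 in wild-type pools, which separated the pools by a very small margin (ratio 0.05, interval -0.27 to 0.37). Loess, quantile normalization or median centring of the arrays ended that separation. The other U74Av2 probe set overlapped at -0.04. On MOE430v2, 1416416_x_at, with the highest Gstm1 signal, read 916.9 and 769.7 in Foxa2 null, against 744.2 and 808.2 in wild-type pools. It overlapped at 0.10 (interval -0.28 to 0.49). Probe set 1448330_at read 716.4 and 593.6, against 596.8 and 552.2, and 1425626_at read 127.9 and 127.7, against 54.6 and 29.5. The deposited signals of 1448330_at overlapped and were separated as higher in Foxa2 null only after loess (ratio 0.17, adjusted p = 0.761), whereas those of 1425626_at, the dimmer, were separated by a wide margin (1.70, SE 0.68, interval 0.16 to 3.23, adjusted p = 0.367). The 4th, 1425627_x_at, overlapped at 1.38 with an interval of -0.26 to 3.02.

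Gsto1 encodes the omega-class transferase, which reduces dehydroascorbate. It read 347.0 and 366.5 in Foxa2 null, against 360.7 and 350.1 in wild-type pools on U74Av2, a ratio of 0.01 (interval -0.34 to 0.35). On MOE430v2, 1416531_at read 2040 and 2049 in Foxa2 null, against 2267 and 2188 in wild-type pools. These pools were separated by a narrow margin and the ratio was -0.13 (interval -0.39 to 0.13, adjusted p = 0.705), while 1456036_x_at overlapped at 0.11.

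Gclm encodes the modifier subunit of glutamate-cysteine ligase, which raises the activity of the catalytic subunit Gclc. On U74Av2 it read 150.4 and 166.1 in Foxa2 null, against 91.0 and 119.8 in wild-type pools. The pools did not overlap and the ratio was 0.60 (SE 0.22, interval 0.11 to 1.09, adjusted p = 0.372). On MOE430v2, the brighter probe set 1418627_at read 1002 and 481.8 in Foxa2 null, against 386.0 and 700.3 in wild-type pools, and 1439050_at read 291.8 and 225.4, against 193.3 and 217.0. The first of these overlapped (0.41, interval -0.43 to 1.25) and the other was separated by a small margin (0.32, interval -0.36 to 1.01). None of the 3 Gclm probe sets passed the threshold.

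**Figure D3:**
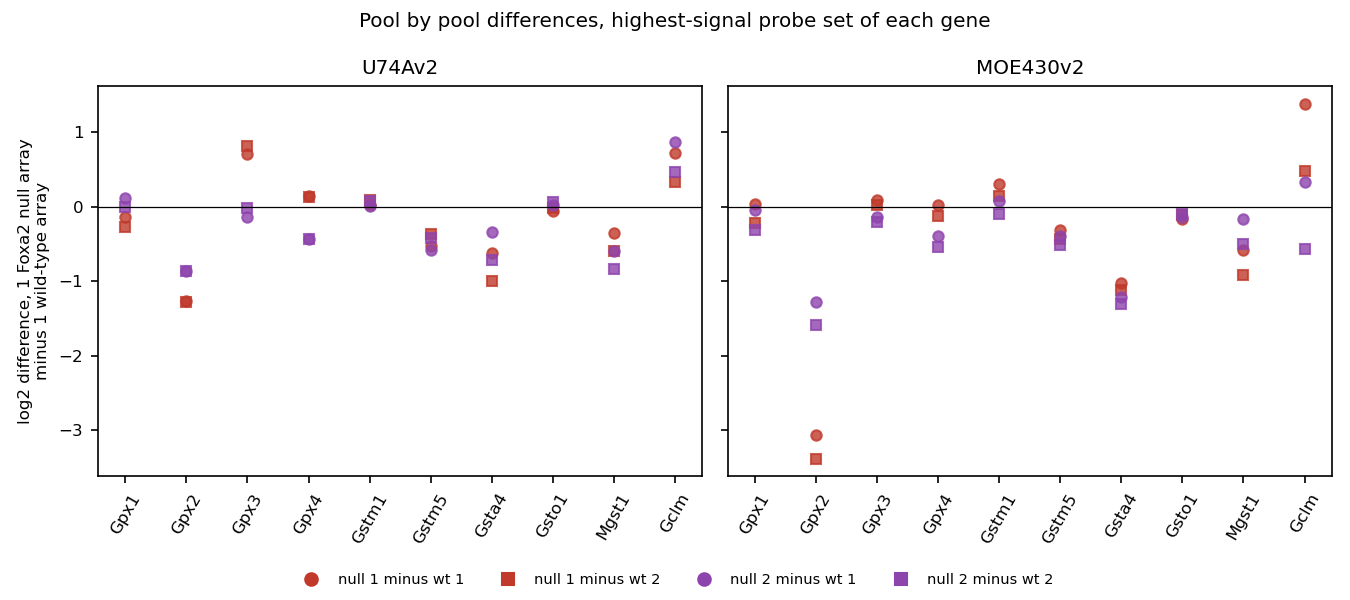
Log2 difference (y axis) of each Foxa2 null array and each wild-type array, 4 points per gene, on U74Av2 (left) and MOE430v2 (right), for the highest-signal probe set of each of the 10 genes. All 8 points of each of Gpx2, Gsta4, Gstm5 and Mgst1 lie below 0, those of Gpx2 on MOE430v2 from -3.38 to -1.28, and those of Gclm lie above 0 on U74Av2 and on both sides of 0 on MOE430v2.

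Averaging each extract over both platforms put 5933 genes into a single fit, in which Gpx2 and Gsta4 fell. Gpx2 had a log2 ratio of -1.70 (SE 0.34, interval -2.46 to -0.93, adjusted p = 0.0355) and Gsta4 of -0.92 (SE 0.14, interval -1.23 to -0.60, adjusted p = 0.0172). These were 2 calls among 10 genes as lower, where 1.06% of all genes were called lower, and 0 of the 10 were called higher, where 1.35% were. At an unadjusted p under 0.05, 4 were lower (Gpx2, Gsta4, Gstm5 and Mgst1) and 0 higher, where 7.84% and 7.42% of all genes were. These 4 genes had been picked by the study as lower in these same extracts. Their counts beside the shares of all genes are therefore not independent evidence. Gstm5 stood at -0.44 (SE 0.11, adjusted p = 0.0671) and Mgst1 at -0.57 (SE 0.24, adjusted p = 0.29), both with separated pools. Gsto1 was also separated, at -0.06, which makes 5 genes separated as lower, against 23.5% of all genes, and 0 as higher, against 22.1%. Gclm averaged 0.50 (SE 0.23, interval -0.01 to 1.02, adjusted p = 0.342) and its extracts overlapped. The remaining genes lay between -0.20 (Gpx4) and 0.14 (Gpx3), with intervals that included 0. Gpx2 no longer passed once wild-type pool 1 (adjusted p = 0.0713) or 2 (adjusted p = 0.0953) was left out, nor did Gsta4 once wild-type pool 2 was left out (adjusted p = 0.0633). Both calls were lost without the intensity trend, at adjusted p of 0.195 and 0.145.

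Among the other glutathione peroxidases, which lack selenocysteine in mice, Gpx8, an enzyme of the endoplasmic reticulum, fell. It read 545.4 and 498.6 in Foxa2 null, against 1073 and 1147 in wild-type pools on MOE430v2, and its log2 ratio was -1.10 (SE 0.17, adjusted p = 0.032). Without an intensity trend in limma, 0 probe sets in all passed on MOE430v2, and the call of Gpx8 was lost. Gpx7, its close relative in the endoplasmic reticulum, was separated as lower on both platforms at -0.43 (U74Av2, adjusted p = 0.681) and -0.40 (MOE430v2, adjusted p = 0.467). Gpx5, a secreted form known from the epididymis, was dim and also separated as lower, at -1.37 and -0.90. In all, 2 of 2 of these other peroxidases on U74Av2 and 3 of 4 on MOE430v2 had lower separated pools, where 21.4% and 21.8% of all probe sets tested did. The same shares, with 18.6% and 21.5% for higher separated pools, stand behind the counts of the lists that follow. These shares count all probe sets tested, whereas the lists count the brightest probe set of each gene. A share counted in that way over all genes of a platform was not computed.

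Among the other transferases, 0 of 8 tested on U74Av2 and 0 of 13 on MOE430v2 passed, with medians of 0.01 on each. Mgst2, another microsomal enzyme, read 66.1 and 30.4 in Foxa2 null, against 88.6 and 160.3 in wild-type pools on MOE430v2 (ratio -1.39, adjusted p = 0.492). Hpgds, the hematopoietic prostaglandin D synthase, had a ratio of 0.78, and Gstz1 was separated as higher on both platforms, at 0.35 and 0.27.

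In glutathione synthesis, recycling and turnover, a list that includes Gclm, 0 genes passed on either platform. Of 8 tested on U74Av2, 4 were separated as higher, 0 as lower, and the median was 0.26, whereas of 14 on MOE430v2 2 were separated each way and the median was 0.03. Gclc, the catalytic partner of Gclm, read 1473 and 1592 in Foxa2 null, against 1376 and 1227 in wild-type pools on MOE430v2 (0.23, adjusted p = 0.559). Gsr, glutathione reductase, was separated as higher on both arrays at 0.31 and 0.21, and it lies on chromosome 8. Idh1, a cytosolic source of NADPH, and Ggct, which degrades gamma-glutamyl peptides, were separated as lower on MOE430v2 at -0.39 and -0.36. On U74Av2 the pools of both overlapped, with Idh1 in the other direction at 0.45 and Ggct at -0.06.

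The parallel peroxide-removing systems, thioredoxins, peroxiredoxins, superoxide dismutases and catalase, held 0 calls among 13 genes on U74Av2 and 12 on MOE430v2, with medians of -0.09 and -0.01. Catalase (Cat) was separated as lower on both at -0.24 and -0.32, and Prdx2, a gene of chromosome 8, as higher at 0.42 and 0.30. Of the Nrf2 pathway and its targets outside the 10 genes, 0 of 15 and 0 of 17 passed, with medians of -0.03 and 0.09. Osgin1, a growth inhibitor induced by oxidative stress, had a ratio of -2.24 (SE 0.74, adjusted p = 0.268) on MOE430v2. Nqo1, a classical Nrf2 target, was separated in opposite directions on the platforms, at -0.68 on U74Av2 and 0.85 on MOE430v2. Both lie on chromosome 8. Over all the glutathione, redox and selenoprotein lists outside the 10 genes, 0 of 51 genes passed on U74Av2 in limma. On MOE430v2, 1 of 74 passed, Gpx8, as lower. Of all probe sets tested on U74Av2 and MOE430v2, 0.173% and 0.244% passed as lower, and 0.104% and 0.19% as higher. Pools were separated as lower for 29.4% and 33.8% of these genes, against 21.4% and 21.8% of all probe sets tested. They were separated as higher for 13.7% and 25.7% of these genes, against 18.6% and 21.5%. At an unadjusted p under 0.05, 1 was lower and 1 higher on U74Av2, and 7 were lower and 4 higher on MOE430v2, where 5.01% of all probe sets tested were in each direction on U74Av2, and 6.07% and 6.03% on MOE430v2.

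**Figure D4:**
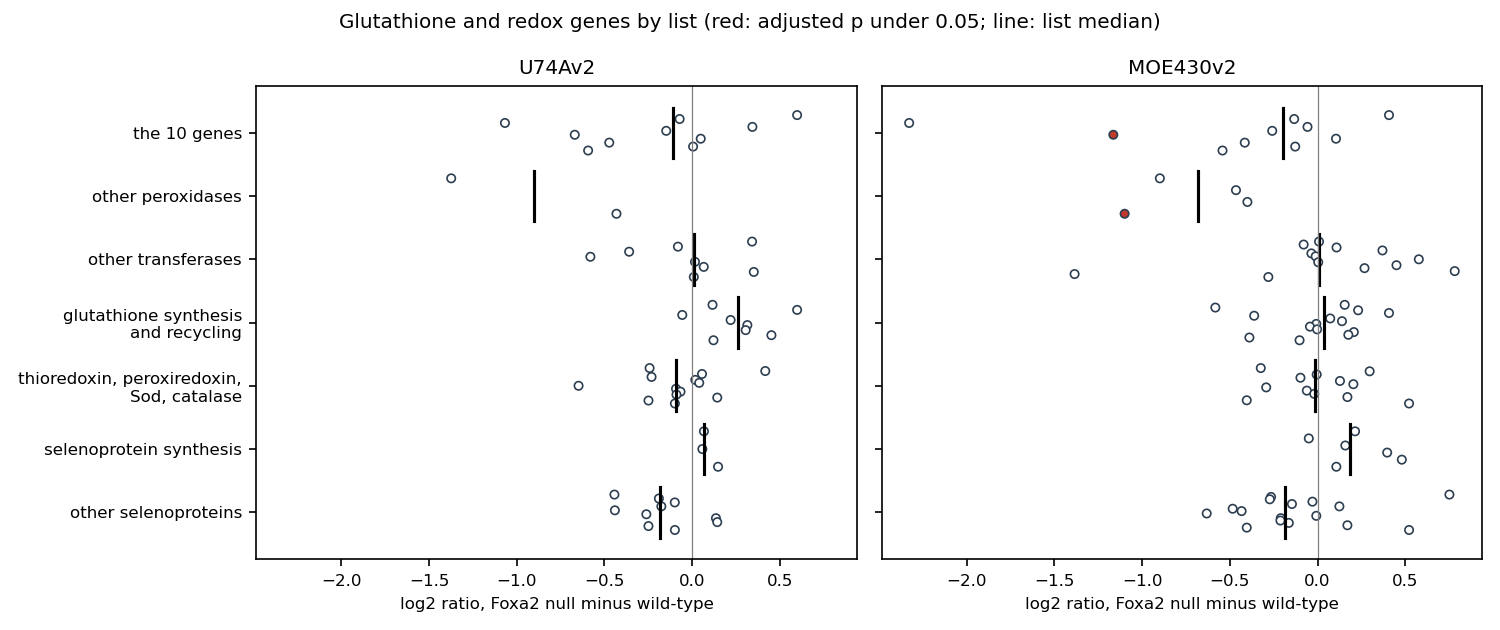
Foxa2 null minus wild-type log2 level (x axis) for each tested gene of the glutathione and redox lists (rows), on U74Av2 (left) and MOE430v2 (right), with a line at each list's median. The 2 filled red points, Gsta4 at -1.16 and Gpx8 at -1.10, both on MOE430v2, passed an adjusted p of 0.05, and Gclm is drawn both with the 10 genes and with glutathione synthesis.

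Marker genes of the cell types in these pools also differed between the genotypes. In bulk pools, fewer cells of a type and less RNA per cell cannot be told apart. Definitive endoderm markers were below 0 in 5 of 6 genes on each platform (medians -0.75 and -0.83), and their summed signal was 1128 to 1239 in Foxa2 null and 1499 to 1915 in wild-type pools on U74Av2, and 6947 to 8011 in Foxa2 null and 8588 to 11033 in wild-type pools on MOE430v2. Of these, Cer1 passed on U74Av2 (-1.82, adjusted p = 0.0313) and Foxa1 on MOE430v2 (-1.54, adjusted p = 0.0341). Node and notochord markers were below 0 in 5 of 5 and 6 of 6 genes (medians -1.12 and -1.16), with summed signals of 229.1 to 240.5 in Foxa2 null and 480.3 to 616.0 in wild-type pools on U74Av2, and 1264 to 1404 in Foxa2 null and 3259 to 3648 in wild-type pools on MOE430v2. Foxa2, the mutated gene, is itself counted among these markers and in these sums. On U74Av2 it gave 84.0 and 93.8 in Foxa2 null and 165.3 and 270.7 in wild-type pools. The other tested markers of this list were below 0 as well. Foxd4 passed on U74Av2 (-2.79, adjusted p = 0.0164) and stood at -3.70 on MOE430v2 (adjusted p = 0.0768). Visceral endoderm markers were above 0 in 9 of 10 and 12 of 12 genes (medians 0.46 and 0.31), and their summed signal was 6817 to 10048 in Foxa2 null and 6588 to 6725 in wild-type pools on U74Av2, and 74703 to 90963 in Foxa2 null and 64704 to 73291 in wild-type pools on MOE430v2. Epiblast markers were above 0 in 4 of 4 and 5 of 6 genes (medians 0.54 and 0.36), with summed signals of 1983 to 2735 in Foxa2 null and 1777 to 2116 in wild-type pools on U74Av2, and 22405 to 28817 in Foxa2 null and 20170 to 26349 in wild-type pools on MOE430v2. Primitive streak markers were above 0 in 3 of 4 genes on each (medians 0.52 and 0.48), with summed signals of 408.5 to 821.7 in Foxa2 null and 262.7 to 469.0 in wild-type pools on U74Av2, and 3084 to 5990 in Foxa2 null and 1980 to 3490 in wild-type pools on MOE430v2. T was also on the streak list, but it was not found under that symbol on either platform and is not counted. The study reports T as reduced in Foxa2 null embryos on both arrays. The medians on U74Av2 and MOE430v2 were -0.09 and -0.18 for parietal endoderm, 0.47 and -0.21 for trophoblast, and 0.01 and 0.36 for primitive blood. No tested gene of the epiblast, streak, visceral or parietal endoderm, trophoblast or blood lists passed the threshold. No tested marker had a signal of 0. The part of these cell types in the results on the glutathione genes was not tested.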

How the data were processed

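Total RNA of 2 Foxa2 null and 2 wild-type embryo pools was hybridized to U74Av2 and MOE430v2 arrays (4 arrays each). The authors deposited linear MAS5 signals, that is 1 intensity for each probe set, after bringing every array to a common target. For U74Av2 the methods put this target at 1000, while the values have a trimmed mean of 150, and the MOE430v2 values are deposited before the loess step that the methods describe. Present calls and probe-level values were not analysed here, so the change calls and the Wilcoxon test on probes were not repeated.

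Signals were floored at 0.1 and taken to log2 in R 4.3.3 (limma 3.58.1 and data.table, version 1.17.8), U74Av2 as scaled and MOE430v2 after cyclic loess. Control probe sets (66 and 64) and the 30% of the others with the lowest mean were left out, leaving 8695 and 31526. Foxa2 null was compared with wild-type by a two-sided limma test (lmFit, then eBayes with a prior variance that follows signal) without a block, and p-values were adjusted by Benjamini-Hochberg over all probe sets tested (threshold 0.05). For 5933 genes on both platforms, each gene's log2 values were centred within a platform and averaged over the arrays of an extract. With 2 pools a side, the smallest p of an exact permutation test is 0.333. The code was tested on simulated data. Symbols were updated by Entrez ID to the RefSeq gene list (GRCm38.p6).

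The 10 genes and all lists were chosen with earlier results of these data known. Every probe set of the 10 genes is accounted for, with its 4 signals where it was separated or the brightest of its gene. Of other lists, all genes past the threshold are named, on the brightest single-gene probe set. The further genes named were picked from the 3 largest separated ratios of a list on either platform. Not all of those are named, and Sod3, Gstm3, Txnrd2 and Txnrd3 are among those left out. Alternatives were other normalizations, filters, an offset before log2, no trend, a replicate block, the mean over probe sets and leaving out each pool. A count over _at and _a_at probe sets alone was added after seeing the data.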

Additional observations from a re-analysis of the deposited data

How the results depend on the processing

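With 2 pools per genotype the intervals are wide, widest for dim probe sets such as those of Gstm5 and Gstm1, and a ratio that missed the threshold does not show equal levels. The direction of Gpx2, Gsta4 and Gstm5 (100629_at, 100630_f_at and 1416842_at) and of the tested Mgst1 probe sets was kept under all alternatives run, with Gpx2 from -1.27 to -0.74 on U74Av2 and -3.22 to -1.32 on MOE430v2, and Gsta4 from -0.86 to -0.48 and -1.26 to -1.07. Without the intensity trend, 0 of the 10 genes' probe sets were called on MOE430v2 and 0 genes over both platforms, where 0 probe sets in all were called on U74Av2 (24 with the trend), 0 on MOE430v2 (137 with it) and 2 genes over both platforms (143 with it). Without a filter on low signal these totals were 3 and 43 on the arrays, with 50% left out 38 and 325, and with an offset 265 on MOE430v2. Loess, quantile normalization or median centring on U74Av2, and counting only _at and _a_at probe sets, each left 1 U74Av2 probe set separated as higher. Averaging all probe sets of a gene left 3 genes separated as lower and 2 as higher over both platforms. The shares of all probe sets and genes separated under these settings were not computed. Probe sets near 0 changed sign: Gsto1 97819_at was -0.015 after loess and -0.029 after quantile normalization, and with an offset before log2 Gstm5 100631_r_at was -0.046 and 161722_f_at -0.0026. The cause was not tested.

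The sample labels give pools of the same number no link other than that number, and whether they share more is not known. With 2 pairs, their deviations correlated at 0.111 on U74Av2 and 0.0851 on MOE430v2. With the replicate block, 1 probe set was called lower on U74Av2 (Gpx2, adjusted p = 0.0187) and 3 on MOE430v2 (Gsta4, Gpx2 at 0.000618 and Gstm5 at 0.0393), while the calls over all probe sets came to 292 (24 without it) and 1643 (137 without it). Over both platforms Gstm5 passed as well (0.0108), 502 genes passing in all. The block changed no other call among the 10 genes.

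Leaving out 1 pool in turn gave 5 to 8 probe sets separated as lower and 2 to 4 as higher on U74Av2, and 0 to 2 called lower and 3 to 7 separated as higher on MOE430v2. Over both platforms it gave 0 to 2 genes called lower and 0 to 4 separated as higher. Total calls ran from 15 to 38 on U74Av2, 32 to 239 on MOE430v2 and 55 to 274 over both platforms. A pair of comparisons then stands in place of 4, which makes separation easier. The share of all probe sets or genes separated with a pool left out was not computed. These counts of separated pools therefore cannot be set beside a share of all. Ratios that changed sign ran from -1.02 to 1.25 (Gstm5 100631_r_at), -0.70 to 0.96 (161722_f_at), -0.074 to 0.76 (Gpx3 101676_at), -0.30 to 0.21 (Gstm1 161633_r_at), -0.20 to 0.059 (Gpx1 94132_at), -0.43 to 0.14 (Gpx4 94897_at), -0.034 to 0.045 (Gsto1 97819_at), -0.011 to 0.22 (Gstm1 1416416_x_at), -0.12 to 0.93 (Gclm 1418627_at), -0.17 to 0.052 (Gpx3 1449106_at) and -0.27 to 0.48 (Gsto1 1456036_x_at). Over both platforms Gpx3 ran from -0.12 to 0.41 and Gpx4 from -0.45 to 0.040.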

Other observations

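Because the enzymes of Gpx1, Gpx2, Gpx3 and Gpx4 carry selenocysteine, the other selenoprotein genes were described as well. Of these, 0 of 10 tested on U74Av2 and 0 of 16 on MOE430v2 passed the threshold, with medians of -0.18 and -0.19, and 5 and 9 were separated as lower in Foxa2 null, against 0 and 3 as higher. Over all probe sets tested, 21.4% and 21.8% were separated as lower and 18.6% and 21.5% as higher. At an unadjusted p under 0.05 in limma, 1 and 2 were lower and 0 and 1 higher, where 5.01% of all were on U74Av2 in each direction, and 6.07% and 6.03% on MOE430v2. Msrb1, which reduces methionine sulfoxide, had ratios of -0.44 on U74Av2 and -0.27 on MOE430v2, and Selenot, a thioredoxin-like protein of the endoplasmic reticulum, of -0.26 and -0.21. Selenoo, a mitochondrial protein, had a ratio of -0.63 on MOE430v2. Dio2, which activates thyroid hormone, ran the other way at 0.75 (adjusted p = 0.393).

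Genes of selenoprotein synthesis gave no call either, with 0 of 3 and 0 of 6 past the threshold, and medians of 0.07 and 0.19. At an unadjusted p under 0.05, 0 were lower on either platform and 0 and 2 were higher. Sephs2, the selenophosphate synthetase, read 4491 and 3897 in Foxa2 null, against 3255 and 3093 in wild-type pools on MOE430v2 (0.40, SE 0.11, adjusted p = 0.212). Sepsecs, which completes selenocysteinyl-tRNA, had a ratio of 0.48 (adjusted p = 0.407) and Eefsec, the elongation factor for that tRNA, of 0.21. These 3 genes were separated as higher in Foxa2 null pools and 0 as lower, all of them on MOE430v2, against the same shares.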
